A study of Arabidopsis thaliana with 21 samples.

Results

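Of 37336 genes counted in wild-type Arabidopsis thaliana seeds, 46 had a transient transcript peak at 6 h of imbibition in water. They were chosen by their own read counts, expressed as CPM, the reads of a gene scaled to 1000000 gene reads per library. A gene was kept when its mean at water 6 h was at least 10 CPM and at least 8 times its mean in dry seeds, at water 16 h and at water 24 h. The 46 were 0.442% of the 10396 genes with at least 10 CPM at water 6 h. The dry and water values chose the genes and are given as a description with no test.

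RNA was sequenced in 21 libraries that formed 7 groups of 3, all from wild-type seeds kept under long days. The dry group was not imbibed. The water groups were imbibed for 6, 16 or 24 h, and the ethylene groups were imbibed for the same times with ethylene, a gaseous plant hormone. The labels used here give no ethylene dose and do not tie the replicates to different seed lots, so a p-value covers only how these libraries varied, possibly for technical reasons.

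A dry seed holds stored mRNAs and little active metabolism, and water uptake restarts transcription, respiration and repair before the radicle emerges. Heat shock proteins are chaperones that help other proteins fold, and seeds accumulate them during maturation as well as after heat. Raffinose-family sugars, wall-loosening proteins and auxin conjugation and transport also belong to the biology of germinating seeds.

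Each library held 11687098 to 21198649 gene reads. Transcripts of 6 seed reserve and maturation markers were at 339 CPM (SESA2) to 23423 CPM (CRA1) in dry seeds, and the seed coat markers BAN, TT10, TT12 and MYB5 were at or below 0.362 CPM in every group mean. The other 2 seed coat markers were measurable, MUM4 at 3.91 to 33.4 CPM and TTG2 at 0.0369 to 8.95 CPM over the group means, with 12.9 and 0.177 CPM at water 6 h. Of 4 endosperm markers measured, CYP707A2, an abscisic acid hydroxylase gene, also had its highest mean at water 6 h, at 153.9 CPM against 24.1 CPM in dry seeds, while MAN7, XTH31 and EXPA2 were higher at 24 h than at 6 h in both treatments. The part of such markers in the results was not tested, and in RNA from whole seeds a change in the number of cells of a type and a change in RNA per cell cannot be told apart. The library labelled ethylene 16 h replicate 2 stood apart from its group. Its 10 most abundant genes took 13.6% of the reads, against 5.41 and 5.52% in the other 2 libraries and 12.8 to 14.7% at water 16 h. Results that use it are given with and without it.

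Summed over the 46 genes, the level was 512.6 to 515.2 CPM in the dry libraries and 10814, 10664 and 10495 CPM at water 6 h. It was 547.7 to 697.4 CPM at water 16 h and 500.9 to 563.0 CPM at water 24 h. With ethylene it was 11496 to 11667 CPM at 6 h and 2100 to 2223 CPM at 24 h, so the 24 h libraries of the treatments did not overlap. At ethylene 16 h it was 2479 and 2425 CPM in replicates 1 and 3 and 618.5 CPM in the library labelled replicate 2, inside the water 16 h range. SIP2 and AT3G09440 took the most reads, uncorrected for gene length, and without them the sum was 5433 to 5607 CPM at water 6 h and 214.9 to 225.0 CPM in dry seeds.

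**Figure D1:**
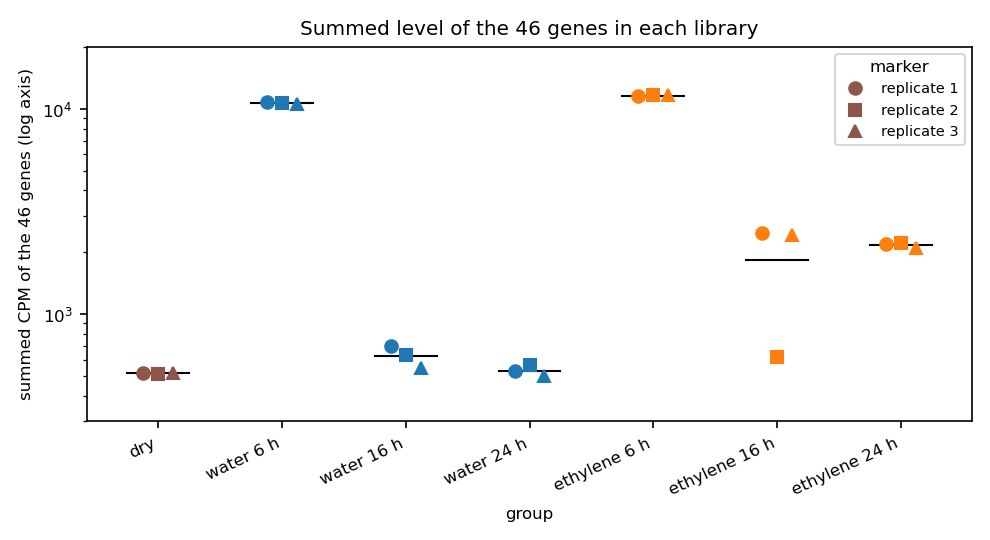
Summed CPM of the 46 genes in each of 21 libraries, by group, on a log axis, with a marker shape for each replicate number. The 6 h libraries of both treatments lie between 10495 and 11667 CPM, and ethylene 16 h replicate 2 lies at 618.5 CPM, apart from 2479 and 2425 CPM.

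The ratio of the water 6 h mean to the largest of the other 3 means ran from 8.04 to 163, with a median of 12.1. The largest of the 3 was the dry mean for 12 genes, the water 16 h mean for 21 and the water 24 h mean for 13. In dry seeds 21 genes were under 1 CPM, 9 were at or above 10 CPM, and 2 had 0 counts in all 3 libraries. TMM scaling, which assumes that most genes keep their level, raised dry levels by a median log2 of 0.89 relative to CPM and lowered water 6 h levels by 0.04, so every fold over dry seeds depends on the scaling, and 31 of the 46 met the rule under it. Just inside the ratio threshold lay DREB2C at 8.04, HSF4 at 8.09 and NIR1 at 8.10, and just outside it WR3 at 7.98, AT5G24570 at 7.64 and CP1 at 7.50. Just inside the level threshold lay AT4G35985 at 10.5 CPM, AT1G31835 at 10.7 CPM and LGO at 10.8 CPM. Just outside it lay AOX1A, a mitochondrial alternative oxidase gene, at 9.48 CPM, PPI2 at 9.28 CPM and SRO3 at 9.19 CPM.

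The peak was also read in libraries that had not chosen it, by applying the rule without replicate 1, 2 or 3 of the dry and water groups. It then chose 46, 46 and 44 genes, of which 39, 39 and 41 were at least 8-fold higher in the replicate left out. All 136 readings were at least 4-fold, and the lowest was 5.13.

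The heat response and protein folding were represented by 7 genes. The Hsp70 chaperone gene AT3G09440 stood at 31.6, 27.2 and 34.9 CPM in the dry libraries and at 2211, 2110 and 2115 CPM at water 6 h. It was at 34.1, 23.4 and 21.5 CPM at water 16 h and 49.97 to 66.89 CPM at water 24 h. With ethylene it was at 2208, 2205 and 2179 CPM at 6 h, 262, 24.1 and 239 CPM at 16 h, and 335, 366 and 324 CPM at 24 h. The 6 h libraries of the treatments overlapped, and the ethylene 24 h libraries all lay above those of water.

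AT5G51440, AT1G59860 and HSP18.2, of the small heat shock proteins, were at 248 ± 3.35, 52.2 ± 3.97 and 13.5 ± 1.64 CPM (mean ± SD, n = 3, as for every such value here) at water 6 h. They were at 15.6, 4.67 and 1.60 CPM in dry seeds and at or below 4.40 CPM at water 16 h and 24 h. AT5G48570, which encodes the FKBP-type prolyl isomerase ROF2, was at 206 ± 9.56 CPM at water 6 h, 16.9 ± 2.62 CPM in dry seeds and 3.39 ± 0.427 CPM at water 16 h. HSF4, also named HSFB1, is a class B heat shock factor and was at 87.1 ± 1.65 CPM at water 6 h and 10.8 ± 0.688 CPM at water 16 h. DREB2C, a factor of the group that binds the dehydration-responsive element, was at 118 ± 6.86 CPM at water 6 h, 14.7 ± 2.29 CPM in dry seeds and 2.88 ± 0.733 CPM at water 24 h. In 5 of the 7, all but AT3G09440 and HSF4, the dry mean was the largest of the other 3.

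Of 15 genes in a heat shock list, HSP18.2, HSF4 and ROF2 were among the 46 and 12 did not meet the rule. HSP101, a chaperone that frees aggregated proteins, was at 781 CPM in dry seeds, 736 CPM at water 6 h and 39.9 CPM at water 16 h. The small heat shock protein gene HSP17.6 was at 5316, 5880 and 108 CPM and HSP70 (AT3G12580) at 1415, 9050 and 85.4 CPM in the same order. These 3 were low at 16 h like the members, with a dry level closer to that at 6 h.

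In carbohydrate, energy and nitrogen metabolism there were 4 genes. SIP2, a raffinose synthase family gene named for seed imbibition, was at 258, 261 and 265 CPM in dry seeds, 3088, 2948 and 2948 CPM at water 6 h, and 251, 218 and 185 CPM at water 16 h. Its relative SIP1 was at 0.594 ± 0.0425 CPM in dry seeds, 255 ± 5.96 CPM at water 6 h and 15.4 ± 3.88 CPM at water 16 h. DIN10, the other gene of that family with at least 10 CPM at water 6 h, was at 45.3 CPM then and at 114 CPM at water 24 h. The pyruvate kinase gene AT5G56350 was at 111 ± 1.76 CPM and NIR1, a nitrite reductase that makes ammonium in plastids, at 584 ± 60.5 CPM at water 6 h.

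The cell wall and glucans were represented by 6 genes. EXPA8, an alpha-expansin that loosens walls, was at 0.363 ± 0.214 CPM in dry seeds, 192 ± 10.5 CPM at water 6 h and 13.9 ± 5.96 CPM at water 16 h. AGP15, an arabinogalactan peptide, was at 261 ± 17.04 CPM at water 6 h. The glucan synthase-like gene GSL11 was at 0.0717 ± 0.0299 CPM in dry seeds and 142 ± 7.82 CPM at water 6 h. The family 17 glycosyl hydrolase genes AT5G18220 and AT5G42720 were at 29.2 ± 1.06 and 19.7 ± 1.42 CPM, and the hydroxyproline-rich glycoprotein gene AT4G16790 at 31.2 ± 1.77 CPM. Relatives followed other courses, with a ratio of 1.25 for EXPA10, 0.396 for EXPA1 and 2.52 for GSL8.

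Of the 4 transporter genes, ABCB4, which carries auxin, was at 227, 222 and 226 CPM at water 6 h, 0.884 to 1.34 CPM in dry seeds and 5.14 to 5.75 CPM at water 16 h. ABCB11, another P-glycoprotein, was at 34.9 ± 0.515 CPM at water 6 h, the MATE efflux gene AT1G71140 at 348 ± 3.57 CPM and the major facilitator gene AT2G16660 at 374 ± 11.6 CPM. In dry seeds AT1G71140 was at 34.1 ± 2.36 CPM and the other 3 were at 0.341 to 2.44 CPM.

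Hormones and signalling were represented by 5 genes. IAGLU, an indole-3-acetate glucosyltransferase gene, was at 313, 324 and 334 CPM at water 6 h, 6.03 to 7.14 CPM in dry seeds and 20.2 to 26.6 CPM at water 16 h. The stress kinase genes SNRK2-8 and MAPKKK20 were at 228 ± 3.71 and 92.5 ± 1.25 CPM at water 6 h. The kelch F-box gene AT1G80440 was at 71.7 ± 6.47 CPM. The 2-oxoglutarate-dependent oxygenase gene AT2G38240 was at 78.7 ± 3.41 CPM at water 6 h and 0.0807 ± 0.0270 CPM at water 24 h.

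Among 4 transcription factor genes, WOX11, a homeobox factor known from adventitious roots, was at 176, 195 and 185 CPM at water 6 h, 0.0553 to 0.161 CPM in dry seeds and 21.4 to 21.7 CPM at water 16 h. NAP, a NAC factor of leaf senescence, was at 58.5 ± 4.22 CPM at water 6 h. The Dof-type gene AT5G02460 and the bromodomain gene AT1G31240 were at 11.1 ± 0.443 and 14.4 ± 1.25 CPM.

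Proteolysis, the cell cycle and redox state were represented by 5 genes. CYSA, a cystatin that inhibits cysteine proteases, was at 0.396 ± 0.0784 CPM in dry seeds, 239 ± 10.11 CPM at water 6 h and 4.32 ± 0.335 CPM at water 24 h. RBL14, a rhomboid-like protein gene, was at 104 ± 2.76 CPM and LGO, an inhibitor of cyclin-dependent kinases that promotes endoreduplication, at 10.8 ± 0.578 CPM. The F-box gene AT2G39415 was at 23.9 ± 1.11 CPM and the thioredoxin family gene AT4G33040 at 17.9 ± 0.396 CPM.

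The other 11 genes are of other or unknown function. AT3G61111, of a zinc-binding ribosomal protein family, had the highest ratio, 163, with 14.3 ± 1.20 CPM at water 6 h and 0 counts at water 24 h. That is at least 238-fold higher than a floor of 3 counts over the group, which covers counting error only. AATP1, an AAA-ATPase gene, was at 54.5, 49.9 and 62.0 CPM at water 6 h and AT5G65030, annotated as a nitric oxide synthase-interacting protein, at 11.3 ± 0.672 CPM. Both had 0 counts in dry seeds and were at least 1027-fold and 210.0-fold higher than that floor. AT4G19160, AT3G03270, AT4G39675, AT1G52855, AT1G26762, AT1G31835 and AT4G35985 ran from 10.5 to 323 CPM at water 6 h. The long non-coding RNA gene AT3G01865 was at 19.4 ± 2.122 CPM, with 46.9% of its stranded reads at water 6 h on the forward strand, where AT3G06630 overlaps it. The other 45 genes had at most 4.20% forward reads.

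**Figure D2:**
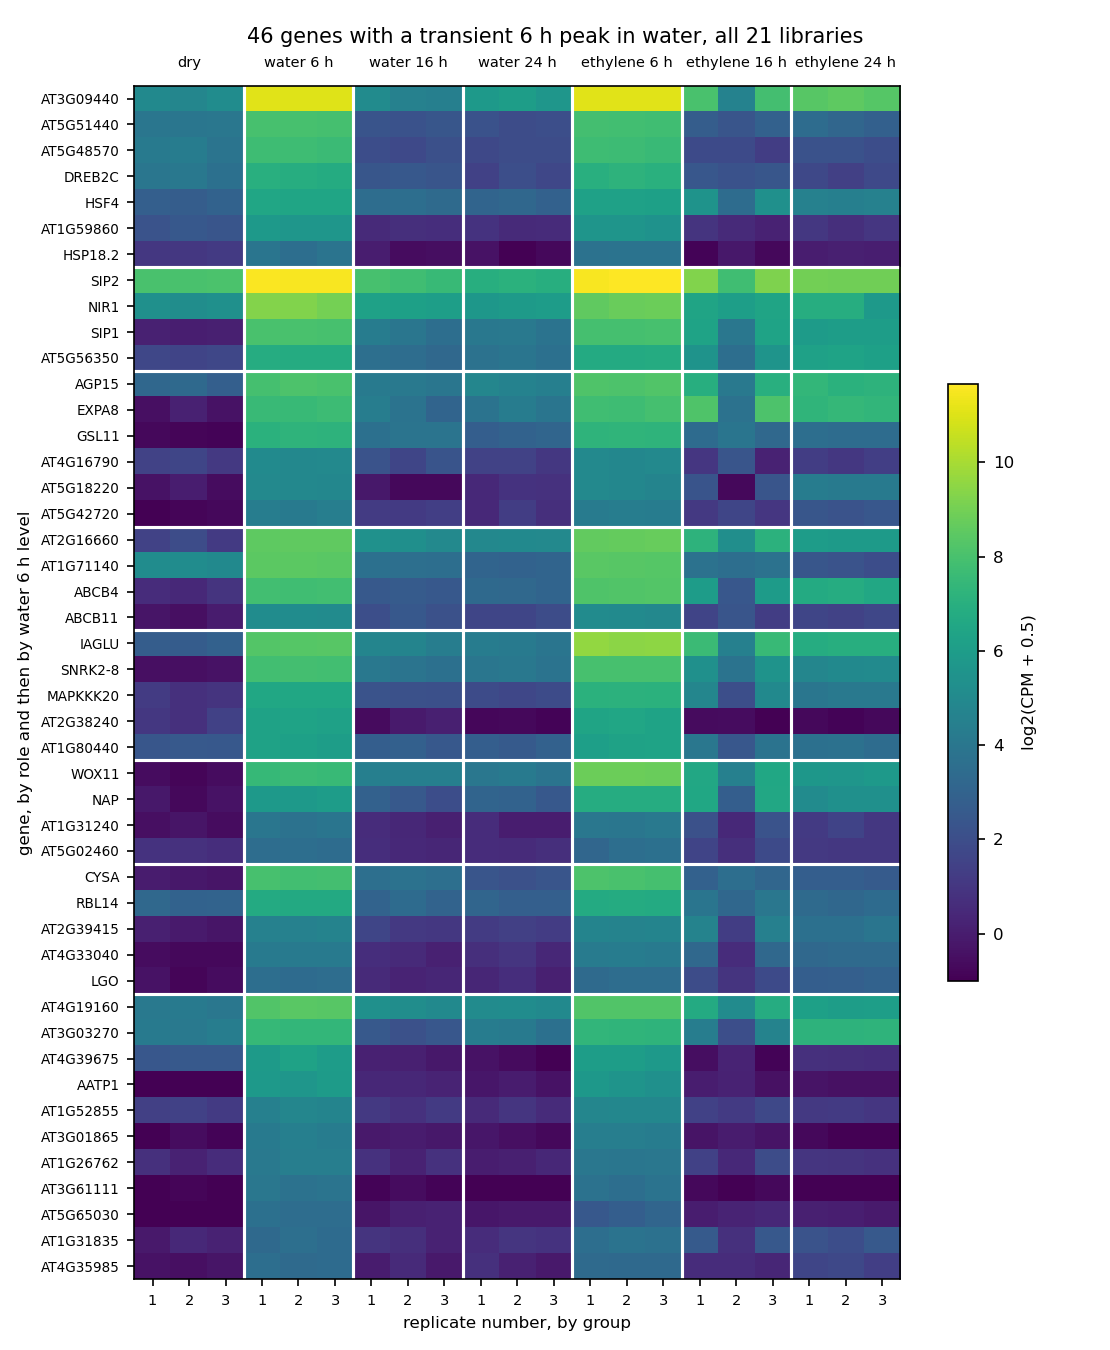
Level of each of the 46 genes, as log2(CPM + 0.5) on a colour scale, in each of 21 libraries, with genes grouped by role. Water 6 h lies above dry, water 16 h and water 24 h in every gene, as the choice of genes requires. In ethylene, EXPA8 at 16 h (290 and 279 CPM) and AT3G03270 at 24 h (147 CPM) lie near or above their 6 h levels (223 and 155 CPM). AT3G03270 is at 3.68 to 24.7 CPM at ethylene 16 h. Ethylene 16 h replicate 2 differs from its neighbours in many, as in AT3G09440 at 24.1 CPM against 262 and 239 CPM.

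Of the 45 protein-coding genes among the 46, 16 (35.6%) had 1 exon, against 829 of 10267 (8.07%) protein-coding genes with at least 10 CPM at water 6 h. The 16 came from 6 of 8 role groups and included HSP18.2, AT1G59860, MAPKKK20, IAGLU, AGP15 and LGO. Their proteins had a median length of 343 residues over the 45, against 412. The 46 genes lay on all 5 chromosomes, 7 to 11 on each, and the closest pair, DREB2C and EXPA8, was 31 genes apart. At most 4.95% (SIP1) of the 50-base stretches of a member occurred elsewhere in the genome.

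Short motifs were searched on both strands in promoter windows of 300 bases, 250 before and 50 after the start, from RefSeq TAIR10.1, for the 45 protein-coding genes matched by locus ID. Each count is followed by its share, the share of all 27431 windows and the share of the 10266 windows of genes with at least 10 CPM at water 6 h. The heat shock element core GAANNTTC was in 2 (4.44%, 11.6% and 11.1%), and in 1 of the 7 heat and folding genes, AT3G09440. There the match lay after the start, from base 34. Other arrangements of the heat shock element were not searched, so these shares do not cover all such elements. The evening element core AAAATATC was in 7 (15.6%, 6.89% and 7.30%). The G-box CACGTG was in 5 (11.1%, 7.68% and 9.89%), the GCC box GCCGCC in 3 (6.67%, 2.57% and 3.12%) and the CAMTA site CGCGT in 2 (4.44%, 8.70% and 10.4%). The W-box core TTGAC was in 25 (55.6%, 50.5% and 49.5%), TATAAA in 26 (57.8%, 52.1% and 50.2%) and the as-1 core TGACG, which can overlap the W-box core, in 12 (26.7%, 23.1% and 24.9%). The DRE core CCGAC was in 8 (17.8%), above the share of all windows (15.1%) and below that of the genes with at least 10 CPM (18.6%). Site II, TGGGCC, was in 6 (13.3%, 15.5% and 24.4%), the telo-box AAACCCTA in 2 (4.44%, 6.22% and 6.96%) and the hypoxia element form in 1 (2.22%, 1.04% and 1.18%). These are matches of letters in a window, described with no test.

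In 3 genes the string AAAATATC lay upstream on the strand of the gene, 132, 121 and 117 bases before the start. Their 250 upstream bases are shown to place it, with the string in capitals. The base after it was A in all 3, so none of these stretches is the full evening element. In TAIR10.1 the windows are chr3:18649522-18649771 for MAPKKK20 and chr3:21293172-21293421 for SIP2, both on the minus strand, and chr1:30241202-30241451 for AT1G80440 on the plus strand.
MAPKKK20: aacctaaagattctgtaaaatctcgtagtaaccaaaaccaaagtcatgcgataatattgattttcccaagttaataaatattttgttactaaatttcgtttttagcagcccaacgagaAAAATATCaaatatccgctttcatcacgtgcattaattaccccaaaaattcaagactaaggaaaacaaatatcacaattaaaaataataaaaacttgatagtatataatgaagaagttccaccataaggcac
SIP2: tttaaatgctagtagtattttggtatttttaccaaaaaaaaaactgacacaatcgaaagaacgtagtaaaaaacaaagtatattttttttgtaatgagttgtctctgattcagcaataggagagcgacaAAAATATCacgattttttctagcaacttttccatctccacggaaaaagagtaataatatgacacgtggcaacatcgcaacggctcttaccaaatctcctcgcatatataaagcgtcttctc
AT1G80440: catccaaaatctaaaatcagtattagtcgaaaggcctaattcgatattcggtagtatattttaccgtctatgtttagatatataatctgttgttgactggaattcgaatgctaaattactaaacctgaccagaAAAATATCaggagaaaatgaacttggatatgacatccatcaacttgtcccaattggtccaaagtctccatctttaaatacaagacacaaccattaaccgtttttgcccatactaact
The other 4 matches were on the opposite strand in AT4G19160, AT5G56350 and ABCB11 and after the start in AT5G51440.

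The ethylene libraries did not choose the genes, so the fall after 6 h could be tested there. All 46 genes were higher at ethylene 6 h than at ethylene 24 h in edgeR's quasi-likelihood test, at an FDR (Benjamini-Hochberg adjusted p) of 0.05 over 18392 genes, and 0 were lower. Over all genes tested 42.4% were higher at 6 h and 47.8% were lower. The median log2 difference of the 46 was 3.04, against -0.11 over all genes. AT2G38240, AT3G61111, AT3G01865, AATP1 and AT5G65030 were near or below the expression filter's minimum of 10 counts at 24 h. They passed the filter through their 6 h libraries, so only a higher call was open to them and their calls lend no support. In 45 of the 46 every 6 h library lay above every 24 h library, as it did in 55.7% of the 10396 genes with at least 10 CPM at water 6 h, and the exception was AT3G03270, with 148 to 162 CPM at 6 h and 144 to 150 CPM at 24 h.

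The 7 heat and folding genes had a median log2 difference of 4.86 and kept a median of 3.82% of their 6 h mean at 24 h. AT5G48570 (ROF2) stood at 212, 205 and 193 CPM at ethylene 6 h and 4.01, 4.01 and 3.42 CPM at 24 h, a log2 difference of 5.89 ± 0.0722 (SE, edgeR adjusted p = 3.92e-38). DREB2C stood at 127, 146 and 133 CPM and then 2.83, 2.17 and 2.92 CPM, a difference of 5.83 ± 0.0837 (edgeR adjusted p = 3.44e-36). HSF4 kept the highest share of the 7, 30.5%, at 73.3 to 75.7 CPM and then 21.8 to 23.4 CPM.

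Some genes outside the heat response fell further. The oxygenase gene AT2G38240 stood at 83.4, 89.0 and 81.0 CPM at ethylene 6 h and at or below 0.101 CPM at 24 h, a log2 difference of 10.07 ± 0.141. Its size rests on few counts at 24 h, as do those of AT3G01865 and AATP1 below. AT3G61111 was at 12.7 ± 0.978 CPM and then at 0 counts, at least 260-fold lower with a floor of 3 counts over the group. The log2 differences of AT3G01865, AATP1, AT1G71140 and AT4G39675 were 9.19, 7.62, 6.46 and 5.95.

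Other genes stood nearer their 6 h level at 24 h. AT3G03270, of the adenine nucleotide alpha hydrolase-like family, was at 95.1% of its 6 h mean at 24 h, with a log2 difference of 0.23 ± 0.0462 (edgeR adjusted p = 2.71e-05). It had been at 10.5% at 16 h, or 14.6% without ethylene 16 h replicate 2, so its level was low in between. EXPA8 stood at 216, 212 and 242 CPM and then 154, 173 and 163 CPM, or 73.1%, a log2 difference of 0.61 ± 0.0526 (edgeR adjusted p = 5.40e-13). AT5G56350 was at 70.7%, AT5G18220 at 64.9%, LGO at 63.8%, AT2G39415 at 51.9%, AT4G33040 at 51.3% and AGP15 at 51.1%. At 16 h AT5G56350, AT5G18220 and LGO had been lower, at 31.6%, 10.55% and 24.7%. Without ethylene 16 h replicate 2 these were 42.1%, 15.6% and 30.5%. At ethylene 24 h, 23 of 46 genes were at or below 12.5% of the ethylene 6 h mean, the most that the rule allowed in water, 14 were at or above 25% and 8 at or above 50%. The median share was 13.6%, against 82.5% over the 10396 genes. With all 9 ethylene libraries in 1 fit 37 of 46 were called, and AT5G18220, ABCB4, AT4G33040, AT2G39415, EXPA8, AGP15, AT3G03270, NAP and AT5G56350 were not. The share of all genes called in that fit is not given.

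**Figure D3:**
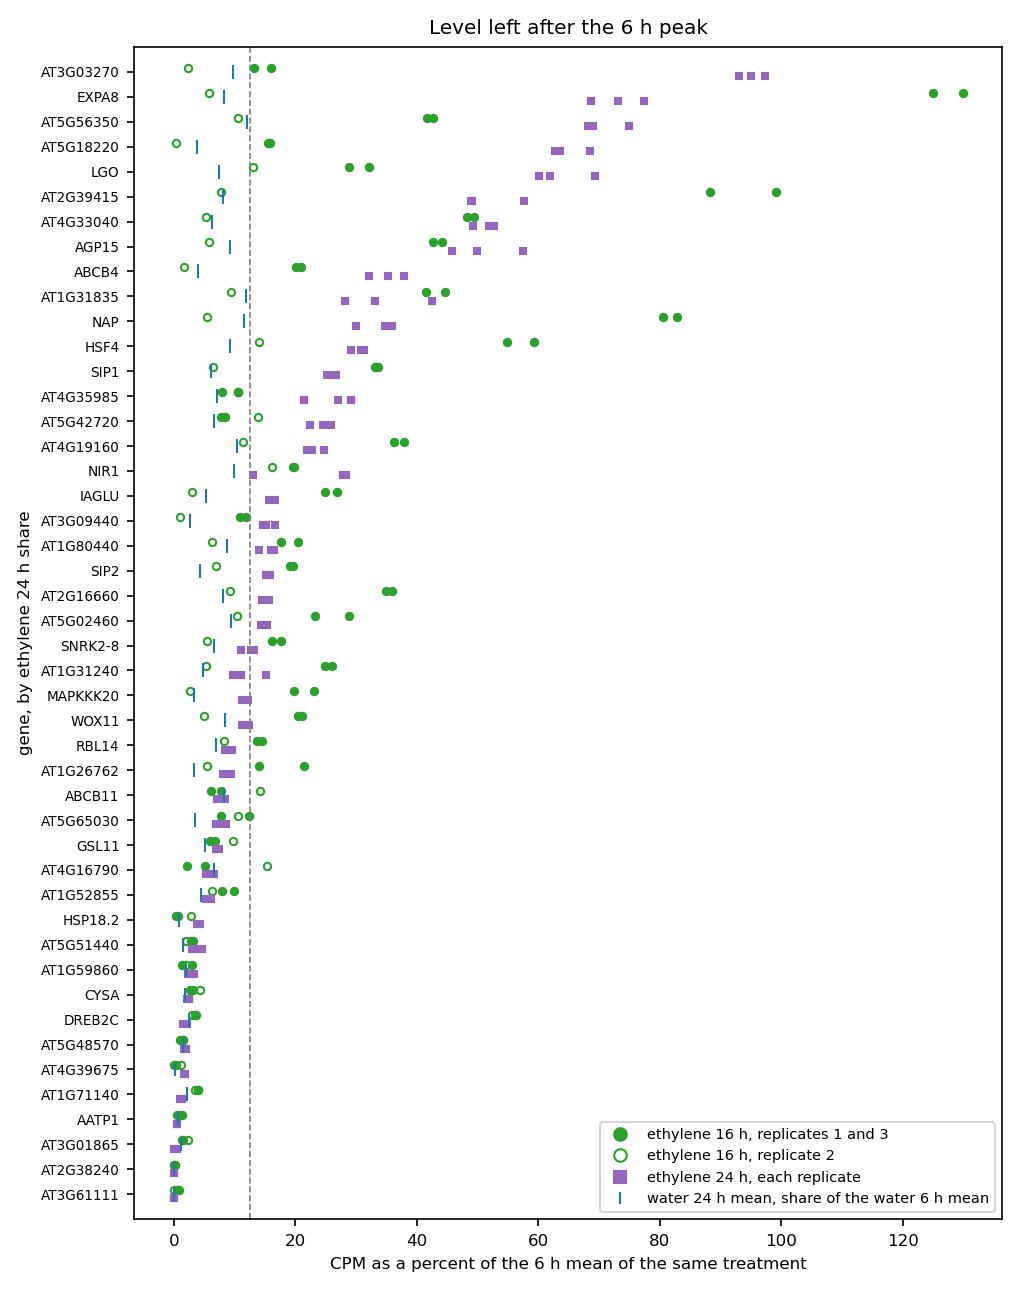
CPM of each gene in each ethylene 16 h library (circles, replicate 2 open) and ethylene 24 h library (squares) as a percent of the ethylene 6 h mean, with the water 24 h mean as a percent of the water 6 h mean (ticks) and a dashed line at 12.5%. Genes are ordered by their ethylene 24 h share, from AT3G61111 at 0% to AT3G03270 at 95.1%.

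Between ethylene 6 h and 16 h, 40 of 46 genes were higher at 6 h and 0 lower in edgeR's test, with 23.2% of all genes higher and 28.9% lower. Low counts at 16 h meant that AT2G38240, AT3G61111, AT3G01865, AATP1, AT5G65030, HSP18.2 and AT4G39675 passed the filter through their 6 h libraries. Their calls there lend no support. The 6 not called were EXPA8, NAP, AT2G39415, AT4G33040, AGP15 and HSF4, with log2 differences of 0.38 to 1.87 and edgeR adjusted p of 0.0534 to 0.756. Without ethylene 16 h replicate 2, 45 were higher at 6 h and 1, EXPA8, was lower (41.5% and 44.6% of all genes). EXPA8 was at 290, 13.0 and 279 CPM at 16 h, the middle value being replicate 2, and without that library its log2 difference was -0.15 (edgeR adjusted p = 0.00355). The fitted biological coefficient of variation, edgeR's measure of spread between replicates, was 0.312 with that library and 0.0305 without it.

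Between ethylene 16 h and 24 h, of 42 genes tested, DREB2C and AT1G71140 were higher at 16 h and AT4G35985, LGO, AT5G42720 and AT3G03270 were lower (15.6% and 18.4% of all genes). AT3G03270 stood at 20.3, 3.68 and 24.7 CPM at 16 h and 144, 147 and 150 CPM at 24 h, a log2 difference of -3.18 ± 0.613 (edgeR adjusted p = 0.0154). Among the ethylene times it was thus low at 16 h alone. Leaving out ethylene 24 h replicate 1, 2 or 3 left 1 call each, with no share of all genes given for these fits. Without ethylene 16 h replicate 2, 21 genes were higher at 16 h and 14 lower (35.7% and 35.7%). Genes then higher at 16 h included NAP (log2 1.26), AT2G16660 (1.22), MAPKKK20 (0.83), WOX11 (0.81) and EXPA8 (0.78). Genes then lower at 16 h included AT5G18220 (log2 -2.08), ABCB4 (-0.80), AT5G56350 (-0.77), AT3G09440 (-0.48) and AGP15 (-0.26).

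Read by the fold of the rule alone, 18 of 46 genes were at least 8-fold lower at both ethylene 16 h and 24 h than at ethylene 6 h, against 1.13% of the 10396 genes.

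Ethylene was then set beside water at each time. The water libraries chose the genes, so these are values with no test, and a gene is counted when its means (+ 0.5 CPM) differed at least 2-fold and its libraries did not overlap. At 6 h the median ethylene to water ratio was 1.01, and it ran from 0.593 (AT5G65030) to 2.43 (WOX11). IAGLU was at 776, 714 and 725 CPM with ethylene against 313, 324 and 334 CPM in water, and WOX11 at 456, 457 and 437 CPM against 176, 195 and 185 CPM. These 2 were counted as higher and 0 as lower (0.442% and 0.125% of the 10396 genes). NAP was at 114 ± 0.990 against 58.5 ± 4.22 CPM and MAPKKK20 at 137 ± 1.22 against 92.5 ± 1.25 CPM. NIR1 lay the other way, at 381 to 454 CPM with ethylene and 515 to 627 CPM in water.

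At 24 h, 25 of the 46 genes were counted as higher with ethylene and 0 as lower, against 16.6% and 14.2% of the 10396 genes. The median ratio was 2.04, against 1.06. AT5G18220 stood at 19.4, 17.8 and 18.0 CPM with ethylene and 0.856, 1.31 and 1.24 CPM in water, and ABCB4 at 106, 114 and 96.3 CPM against 9.67, 9.17 and 7.89 CPM. EXPA8 was at 163 ± 9.71 against 15.9 ± 3.11 CPM, AT3G03270 at 147 ± 3.37 against 16.5 ± 3.91 CPM and IAGLU at 120 ± 3.61 against 17.2 ± 2.40 CPM. AT1G71140 had the lowest ratio, 0.565, at 3.42 to 4.67 CPM with ethylene and 7.29 to 7.96 CPM in water. Of the 7 heat and folding genes, AT3G09440, AT5G51440 and HSF4 were among the 25. In 7 of the 46 genes, AT5G51440, HSF4, AT3G03270, AT5G56350, AT5G65030, AT1G26762 and AT4G35985, the ethylene libraries all lay below those of water at 6 h and all above them at 24 h, as in 4.33% of the 10396 genes. In 1, AT4G39675, the 24 h libraries lay above those of 16 h with ethylene and below them in water (2.26%). Some of these levels were low, with AT5G65030 at or below 0.567 CPM in every 24 h library. TMM scaling lowered ethylene 24 h levels by a median log2 of 0.42 and water 24 h levels by 0.08 relative to CPM.

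At 16 h, LGO and WOX11 were counted as higher and 0 genes as lower (0.798% and 0.635%). Without ethylene 16 h replicate 2, 25 were higher and 1, AT4G16790, lower (11.8% and 8.56%), and the median ratio went from 1.86 to 2.30. Without water 16 h replicate 1, 13 were counted, but the share of all genes in that setting is not given. This count is therefore not read as a result about the members. WOX11 stood at 95.3, 22.3 and 91.8 CPM with ethylene, the middle value being replicate 2, against 21.4, 21.7 and 21.4 CPM in water.

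**Figure D4:**
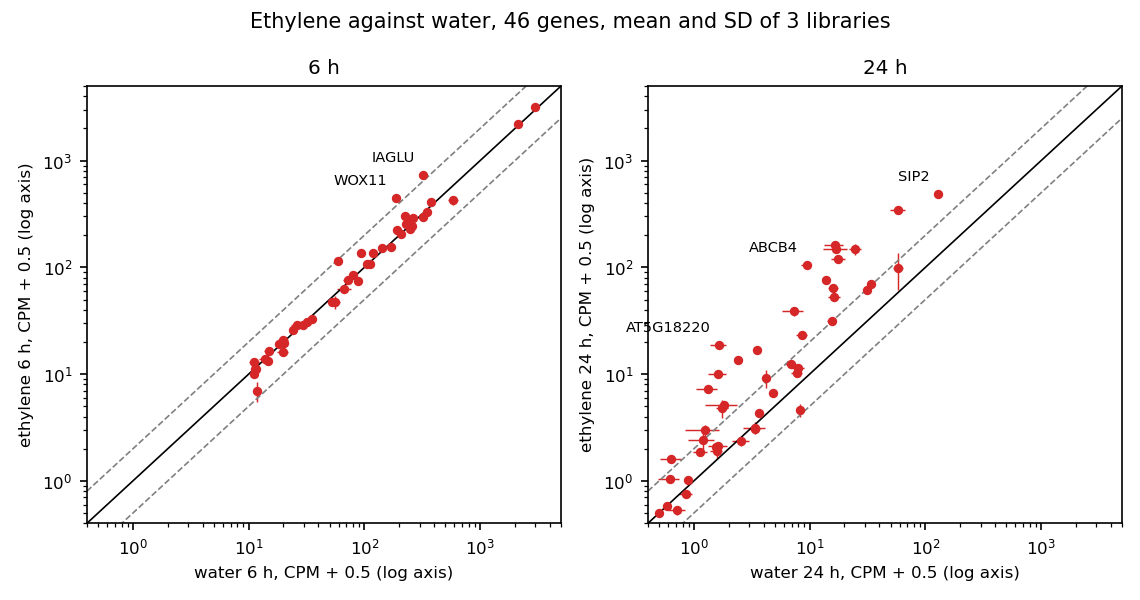
Mean CPM + 0.5 of each of the 46 genes with ethylene against water at 6 h and at 24 h, on log axes, with the SD of 3 libraries as bars. At 6 h the labelled genes IAGLU and WOX11 had 738 and 450 CPM with ethylene against 324 and 185 CPM in water, and at 24 h AT5G18220, ABCB4 and SIP2 are labelled.

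Genes of other pathways were read in the same ethylene contrast. All 15 genes of the heat shock list, 3 of them among the 46, were higher at 6 h than at 24 h in edgeR's test, with a median log2 difference of 5.19. HSP21, at 0.0157 CPM at ethylene 24 h and 0.0506 CPM at ethylene 16 h, passed the filter through its 6 h libraries. Against 16 h 14 of the 15 were higher at 6 h, and 15 without ethylene 16 h replicate 2. Wider families, taken by words in the gene annotation, were less uniform against 24 h. Of 44 genes tested in the small heat shock protein family 28 were higher at 6 h and 14 lower (median 0.85). In the Hsp70 family 12 of 19 were higher and 5 lower (median 1.02), and of 14 heat shock factor genes 12 and 2 (median 1.66). Over all genes 42.4% were higher and 47.8% lower. The small heat shock protein family so taken also held genes of other names, such as SGT1A, SGT1B and BOB1, and the Hsp70 family held CHIP. These counts therefore do not describe heat shock proteins alone. Of 11 alpha-expansin genes tested, 1 (EXPA8) was higher at 6 h and 10 were lower, with a median of -6.41. Against 24 h, of 16 low-oxygen genes tested 6 were higher and 10 lower, of 16 jasmonate genes 5 and 6, of 23 rapid stress factor genes 14 and 8, and of 21 ethylene response genes 11 and 6, beside the same shares of all genes. Against 16 h, where 23.2% of all genes were higher at 6 h and 28.9% lower, the counts in that order were 5 and 0 of 13, 2 and 3 of 16, 11 and 2 of 21, and 7 and 0 of 19. Without ethylene 16 h replicate 2, where 41.5% and 44.6% were, they were 9 and 3 of 14, 4 and 6 of 16, 12 and 7 of 23, and 11 and 8 of 21. The median of the low-oxygen list was -0.68 against 24 h and 0.62 against 16 h, or 0.27 without that library. These 4 lists held 0 of the 46 genes, but they do not hold every gene of these pathways, so this does not show that no member belongs to them.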

How the data were processed

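RNA was measured in 21 stranded, polyA-selected libraries of wild-type seeds, per the labels' protocols. For each gene the authors deposited raw counts of reads without strand, on the forward strand and on the reverse strand. Per the submitters' processing notes, STAR was used with TAIR10. Its version and the annotation release are not given in the sources used here. CPM is the count of a gene divided by the sum over all genes of the library, times 1000000. Reverse counts were used and summary lines were left out. Forward counts were 2.72 to 5.41% of stranded gene reads. Depth was 11687098 to 21198649 gene reads per library.

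CPM, means and the rule were computed in Python 3.11.15 (pandas 2.3.3, numpy 2.4.6). Pairs of ethylene groups were tested on counts in edgeR 4.0.16 (R 4.3.3; TMM, filterByExpr with a minimum count of 10 and a total of 15, quasi-likelihood F test, two-sided, FDR 0.05). The SE is the log2 difference divided by the square root of F. Tested on simulated data for ethylene 6 h against 24 h, the fit recovered 99 of 100 changes of log2 1 and 100 of 100 of log2 3. It also called 6 of 17870 unchanged genes. The simulation gave all genes a common spread and changed far fewer genes than were called in the data. It therefore does not show how the fit performs when most genes change. Alternatives were DESeq2 1.42.0, RLE scaling, no filter, other thresholds, pseudocounts and fits, counts of either strand, a replicate block and left-out replicates. Names, exons, protein lengths and promoter windows came from RefSeq TAIR10.1, which matched 37051 IDs.

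The members, lists and tests were chosen with earlier results of these data known, and the role groups and families were made after the members were seen. In 5 gene lists 7 names matched no single gene and were left out. Genes were named when they had a symbol and were among the 10 highest ratios or water 6 h means, or up to 4 per product-name group. Those groups were set by words in the product names and differ from the role groups of the Results. Genes with a symbol were also named for the 6 highest or lowest ethylene to water ratios at 6 h, or the 6 highest ethylene shares at 16 h or 24 h. List members and the 3 genes on each side of each threshold were added, and other members are named to account for all 46.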

Additional observations from a re-analysis of the deposited data

Results flagged for a closer look

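In 7 genes all ethylene libraries lay below the water libraries at 6 h and above them at 24 h. So did 4.33% of the 10396 genes with at least 10 CPM at water 6 h. The difference between the times was not tested, because the water libraries entered the choice of the genes. The ethylene to water CPM ratio at 6 h and then at 24 h was 0.5755 and 1.32 for AT5G65030, 0.8047 and 2.126 for AT1G26762, and 0.9136 and 2.359 for AT5G51440. It was 0.9125 and 3.33 for AT4G35985 and 0.9067 and 8.876 for AT3G03270. It was 0.9695 and 5.692 for AT5G56350 and 0.8565 and 2.807 for HSF4. At 6 h the gap was narrow in AT5G56350, at 105.9 to 110.2 CPM with ethylene and 110.4 to 113.5 CPM in water. TMM scaling lowered ethylene 24 h levels by a median log2 of 0.42 and water 24 h levels by 0.08, so the 24 h ratios depend on the scaling. Some of the 24 h ratios rest on low levels. With ethylene and in water at 24 h, AT5G65030 was at 0.517 and 0.391 CPM, AT1G26762 at 1.36 and 0.638 CPM, and AT4G35985 at 2.49 and 0.746 CPM. In AT4G39675, an uncharacterized gene, the 24 h to 16 h ratio was 3.545 with ethylene and 0.2579 in water, with no overlap of libraries in either treatment, a pattern that 2.26% of the 10396 genes showed. That difference was not tested, and all 4 group means were at or below 1.12 CPM.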

How the results depend on the processing

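The rule gave 46 genes, 44 to 46 without replicate 1, 2 or 3, 31 with TMM scaling, 44 with counts of either strand, 162 at a ratio of at least 4 and 14 at a ratio of at least 16, and 53 or 34 at a minimum of 5 or 20 CPM. Between ethylene 6 h and 24 h, 45 or 46 members were called under every alternative except all 9 libraries in 1 fit (37), and 46 with any replicate left out. Between ethylene 6 h and 16 h, 30 (FDR 0.01) to 43 (DESeq2) were called, and 33 to 46 with 1 replicate left out. EXPA8 alone changed sign there: its log2 difference of 0.38 ran from -0.15 (without ethylene 16 h replicate 2) to 0.78 with 1 replicate left out. Between ethylene 16 h and 24 h, 6 were called, 8 with DESeq2, 14 with all 9 libraries in 1 fit, 1 at FDR 0.01, and 1 to 35 with 1 replicate left out. There 13 of 42 members changed sign in at least 1 alternative. Ethylene against water gave 2 to 3 genes at 6 h, 2 to 26 at 16 h and 22 to 26 at 24 h with 1 replicate left out. At 16 h a pseudocount of 1 CPM gave 1, and at 24 h TMM scaling gave 21. Apart from the library left out or the samples added, the cause of these changes was not tested. Most of these alternatives have no share of all genes beside them. Their counts show how far a result moved and are not results about the members.

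Replicate numbers were tried as a block although the labels do not say that they pair samples. Deviations of same-numbered libraries had correlations of -0.12 to -0.04 between ethylene 6 h and 24 h, -0.26 to 0.30 between 6 h and 16 h, and -0.08 to 0.06 between 16 h and 24 h. These values gave no uniform sign of pairing but cannot exclude it. Ethylene 16 h replicate 2 stood apart, and deviations from a mean of 3 libraries depend on each other. With the replicate block 46, 39 and 1 members were called in these 3 comparisons. Depth limits the genes under 1 CPM most: 4 members were not tested between ethylene 16 h and 24 h.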
